A study of Homo sapiens with 2 samples.

Results

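The genes described here encode keratins, the intermediate filament proteins of epithelial cells, in an esophageal cancer cell line parted by surface CD90. The members were all probe sets whose platform annotation names a keratin gene, that is a symbol of KRT and a number, with keratin-associated proteins left out and keratin pseudogenes kept and marked. This gave 62 of the 54675 probe sets on the array. Of these 57 belonged to 45 keratin genes, 25 of type I and 20 of type II, and 5 to 3 pseudogenes. None named several keratins, and 2 were shared with a symbol that is not a keratin (KRT34 and KRT19P2). The antisense RNA KRT10-AS1 is not a keratin and was not counted.

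The population of interest was the CD90+ fraction of the KYSE-140 cell line, grown from a human squamous cell carcinoma of the esophagus, and it was set against the CD90- fraction of the same line. CD90 is the surface glycoprotein encoded by THY1. Each fraction came from flow cytometry and was represented by 1 total RNA sample on 1 Affymetrix U133 Plus 2.0 array, so there was no replicate and no test between the populations was possible. Every difference below describes these 2 RNA samples, and in such bulk RNA fewer cells that express a gene and less RNA of it per cell cannot be told apart. No treatment is given in the labels for either fraction.

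Keratins form filaments only as pairs of an acidic type I and a basic type II chain, and the pair in use marks the kind and stage of an epithelium. Basal cells of stratified epithelia carry KRT5 with KRT14 or KRT15, and cells that leave the basal layer turn to suprabasal pairs, KRT4 with KRT13 in esophagus and KRT1 with KRT10 in epidermis. Wounded or hyperproliferative epithelium induces the stress keratins KRT6, KRT16 and KRT17, and single-layered epithelia carry KRT8 and KRT18 with KRT7, KRT19 or KRT20. Another large group builds the hair shaft and its root sheaths.

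Signals are MAS5 values, a linear brightness in arbitrary units, and both arrays had the same trimmed mean of 500 (499.9). The median signal was 72.1 on the CD90+ array and 71.1 on the CD90- array. The geometric mean of these medians, 71.6, was used as a floor: lower signals were set to it, and a gene counted as measured if the probe set that stood for it reached it on at least 1 array. In this sense 12466 genes were measured. THY1 itself read 293 in CD90+ and 78.9 in CD90- cells, in the direction of the sort. All 6 squamous keratinocyte markers with a probe set (DSG3, DSC3, PERP, SFN, TRIM29 and PKP1) were above the floor on both arrays. Their summed signals, over probe sets of unlike brightness, were 49796 in CD90+ and 55435 in CD90- cells. The log2 ratio of CD90+ over CD90- was above 0 in 2 of them and below 0 in 4, with a median of -0.34. All 6 fibroblast, 5 leukocyte and 5 glandular epithelial markers with a probe set were under the floor on both arrays, and of 4 endothelial markers 1, PECAM1, passed it, in CD90+ cells. The number of arrays limits the precision, and the pooled SD of log2 ratios between probe sets of the same gene, 0.31 over 6188 genes, was the nearest thing to a repeated measurement; it holds no spread between sorts.

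The proximal promoters of KRT5, a basal keratin, and KRT10, a suprabasal keratin of epidermis, are shown because their signals behaved differently. KRT5 was nearly equal in both fractions, and KRT10 was lower in CD90+ cells on all of its 3 probe sets. Whether these sequences bear on the signals was not tested. Each is the 250 bases before the RefSeq start site (GRCh38.p14), on the minus strand, 5′ to 3′, at chr12:52520395-52520644 for KRT5 and chr17:40822615-40822864 for KRT10. Capitals mark a TATAAA match.
KRT5: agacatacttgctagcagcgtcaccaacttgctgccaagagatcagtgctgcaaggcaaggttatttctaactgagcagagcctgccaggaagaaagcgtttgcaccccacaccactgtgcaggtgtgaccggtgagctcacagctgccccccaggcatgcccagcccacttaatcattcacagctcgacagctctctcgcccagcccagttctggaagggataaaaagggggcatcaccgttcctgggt
KRT10: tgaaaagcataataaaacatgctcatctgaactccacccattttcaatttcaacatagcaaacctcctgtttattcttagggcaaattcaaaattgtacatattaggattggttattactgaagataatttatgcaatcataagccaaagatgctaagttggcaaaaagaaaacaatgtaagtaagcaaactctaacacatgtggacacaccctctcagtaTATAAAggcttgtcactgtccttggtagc
The motifs searched, on both strands, were TATAAA (the TATA box), GGGCGG (the GC box) and TGANTCA (the AP-1 site). None overlapped another. In KRT10 the match began 29 bases before the start site, and none of the motifs matched in the KRT5 window. Only these strings were searched, so a variant of the TATA box would have been missed. Among all 35116 promoter windows of this length in the table, 10.7% held TATAAA, 42.6% GGGCGG and 6.57% TGANTCA. Of the measured keratins 6 had a promoter entry; KRT9 and KRT75 held 1 GGGCGG match each, and KRT8 and KRT74 held no match.

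Most measured keratins differed by less than 2-fold between the fractions, while KRT80 was more than 2-fold higher and KRT16 more than 2-fold lower in CD90+ cells. Of the 44 keratin genes with a probe set of their own, 15 were measured. Of these 15, KRT80 (1 gene) passed 2-fold upward, KRT16 (1 gene) passed it downward and 13 lay between. Among the 13, the log2 ratios of KRT7 (0.68), KRT19 (0.53), KRT14 (0.52), KRT78 (0.43) and KRT10 (-0.47) lay beyond the pooled SD of 0.31. Those of KRT5, KRT8, KRT9, KRT13, KRT15, KRT18, KRT74 and KRT75 lay within it. Over all measured genes 2.47% passed 2-fold upward, 1.75% downward and 4.22% either way. With 1 of 15 in each direction, the count rests on a single gene each and describes no shift of keratins as a group. Ratios were above 0 in 8 and below 0 in 7, and the median log2 ratio of the 15 was 0.01, beside 0.01 over all measured genes. By type, the 8 measured type I genes had a median of -0.05 and the 7 type II genes one of 0.03.

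**Figure D1:**
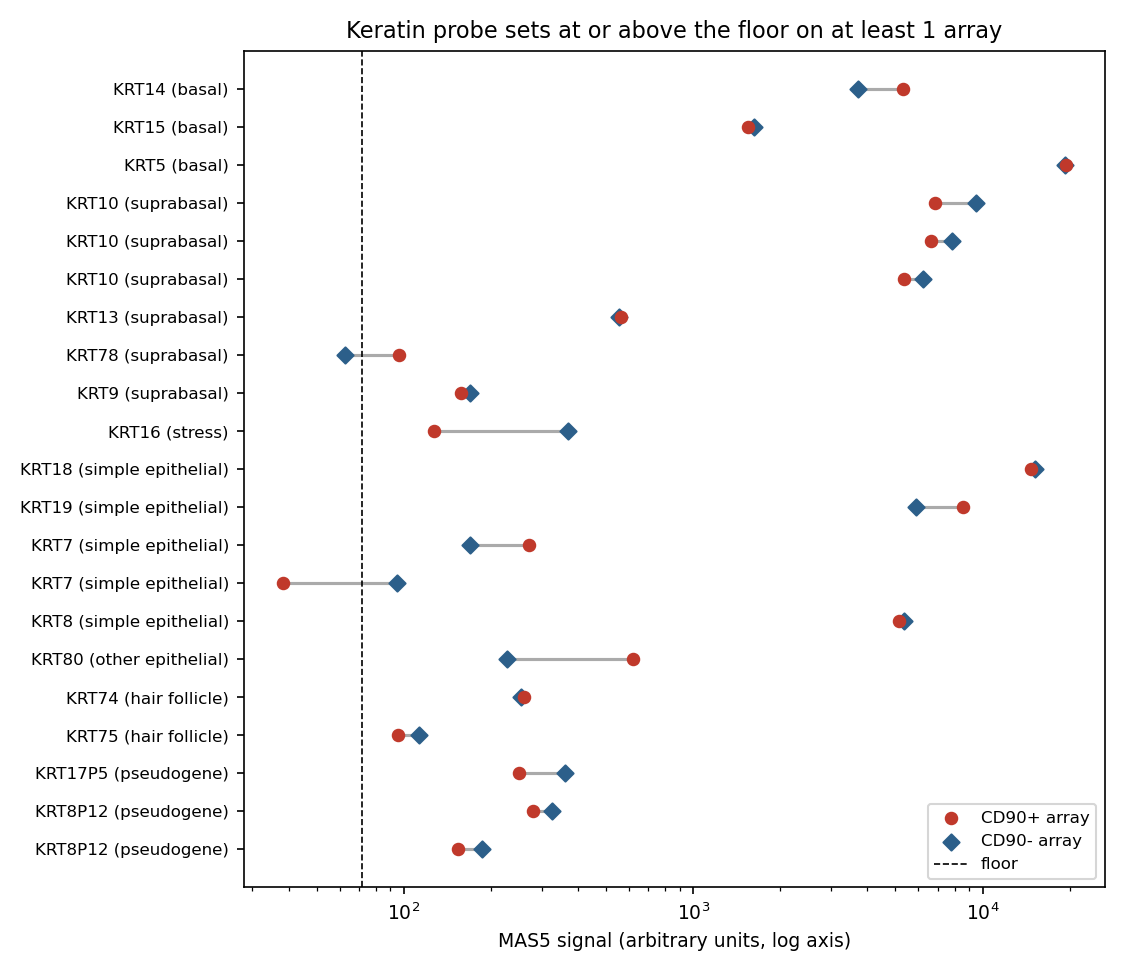
MAS5 signal (log axis) of the 21 keratin probe sets that reached the floor on at least 1 array, with the CD90+ array as circles, the CD90- array as diamonds and the floor of 71.6 as a dashed line. The lines joining both arrays are long for KRT16 and KRT80 and for the dimmer KRT7 probe set, which lies across the floor. Signals of different probe sets are not comparable with each other.

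Among basal keratins the type II chain read alike in both fractions, while KRT14, a type I partner, read 1.44-fold higher in CD90+ cells. KRT5, the basal type II keratin, read 19357 in CD90+ and 19208 in CD90- cells (log2 ratio 0.01). KRT14, its main partner, read 5323 in CD90+ and 3700 in CD90- cells, 1.44-fold higher with a log2 ratio of 0.52. KRT15, the alternative basal partner that is also used as a marker of esophageal and hair follicle progenitors, read 1553 in CD90+ and 1617 in CD90- cells (log2 ratio -0.06). The log2 ratio of KRT14 thus exceeded that of KRT5 by 0.51, and that of KRT15 fell short of it by a difference of -0.07. Among the 2225 measured genes whose mean log2 signal lay within 1 of that of KRT14, 3.87% had a ratio at least as high. Of all measured genes this share was 8.88%. Each of the 3 genes rests on 1 probe set.

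Of 13 suprabasal keratins with a probe set 4 were measured, and none was beyond 2-fold. KRT10, the type I suprabasal keratin of epidermis, was the one with several measured probe sets, and all 3 read lower in CD90+ cells. They read 6834 in CD90+ against 9463 in CD90- cells, 6638 against 7823, and 5372 against 6205. The log2 ratios were -0.47, -0.24 and -0.21, with a mean of -0.30 ± 0.14 (SD over 3 probe sets of the same arrays, which are not replicates). The log2 ratios of -0.24 and -0.21 lay within the pooled SD of 0.31 between probe sets of the same gene. They come from probe sets with the suffix _x_at, whose probes can bind related transcripts. The brightest probe set has the suffix _s_at, so plain _at probe sets alone gave KRT10 no value. By this brightest probe set KRT10 was 1.38-fold lower, and 4.18% of the 1386 measured genes of like signal had a ratio as low. Of all measured genes 10.3% had one. The antisense RNA of the same locus, KRT10-AS1, read 1484 in CD90+ and 1411 in CD90- cells (log2 ratio 0.07).

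KRT13, the type I keratin of the esophageal suprabasal pair, read 563 in CD90+ and 552 in CD90- cells (log2 ratio 0.03). Its type II partner KRT4 was under the floor with both probe sets, at 8.52 and 3.37 in CD90+ cells against 5.73 and 3.67 in CD90- cells. KRT1, the partner of KRT10, was also under the floor, at 8.90 in CD90+ and 44.1 in CD90- cells. So for KRT10 and for KRT13 the usual type II partner was not above the floor in either fraction. KRT78, a type II keratin of stratified epithelia, crossed the floor on one probe set, reading 96.4 in CD90+ and 62.5 in CD90- cells, at least 1.35-fold higher. Its other probe set was under the floor on both arrays, at 3.01 in CD90+ and 2.22 in CD90- cells. KRT9, the type I keratin of palm and sole epidermis, read 158 in CD90+ and 170 in CD90- cells (log2 ratio -0.11). KRT2, KRT3, KRT12, KRT24, KRT76, KRT77 and KRT79 did not reach the floor on either array.

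The stress keratins were represented by KRT16 alone, since no probe set was named for KRT6A, KRT6B, KRT6C or KRT17 here and these were not analysed. KRT16, the type I keratin that wounding and hyperproliferation induce, read 128 in CD90+ and 368 in CD90- cells. It was 2.88-fold lower in CD90+ cells, a log2 ratio of -1.53, and of all measured genes 0.47% had a ratio as low. Among the 3300 genes of like signal this share was 1.03%. In CD90+ cells the signal stood at 1.78 times the floor, and the gene rests on 1 probe set. Where several probe sets of a gene were available and the brightest was under 4 times the floor, the pooled SD of log2 ratios was 0.42. A floor at the 75th percentile (397) left KRT16 unmeasured. A pseudogene of the related KRT17, KRT17P5, read 250 in CD90+ and 362 in CD90- cells on a probe set with the suffix _x_at, whose probes can bind related transcripts, so what it reports is uncertain.

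**Figure D2:**
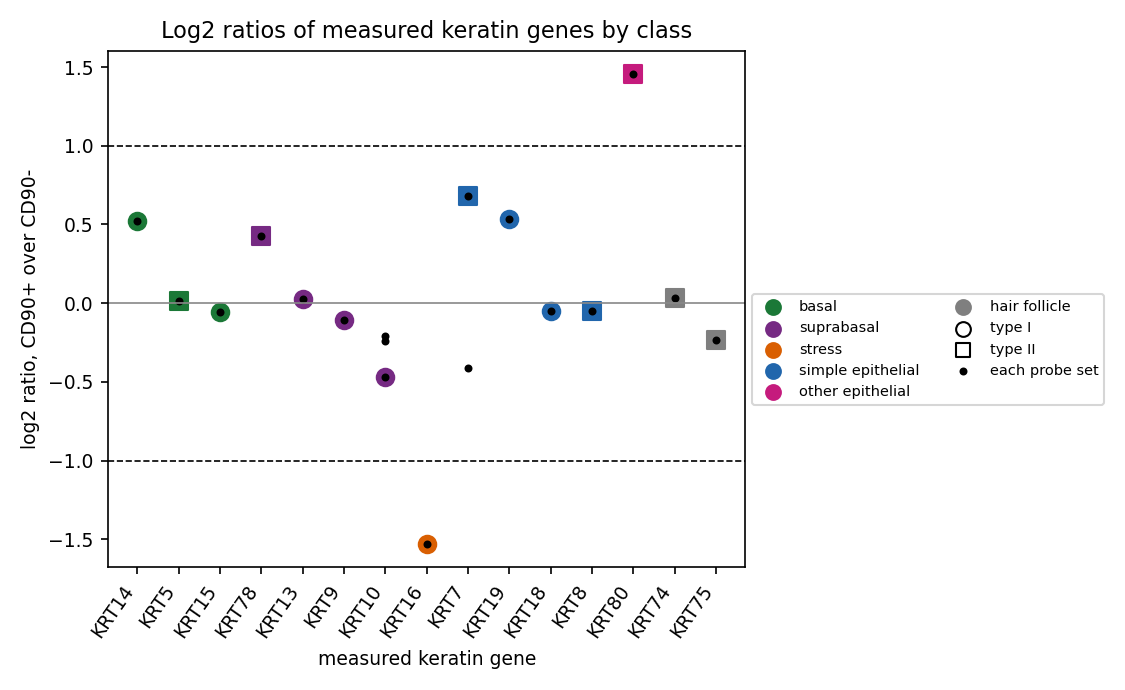
Log2 ratio, CD90+ over CD90-, of the 15 measured keratin genes in order of class, with type I as circles, type II as squares and each measured probe set as a black dot; dashed lines mark 2-fold. KRT80 at 1.45 and KRT16 at -1.53 lie beyond the lines, the 3 dots of KRT10 lie below 0, and the 2 dots of KRT7 lie on both sides of it.

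Simple-epithelial keratins were expressed beside the basal ones in both fractions, and the main pair hardly differed. KRT8, the type II member, read 5146 in CD90+ and 5331 in CD90- cells, and KRT18, its type I partner, 14729 in CD90+ and 15209 in CD90- cells. The log2 ratio was -0.05 for each, and the ratios differed from each other by 0.0047. Both genes rest on 1 probe set of the cross-hybridising class, and KRT8 has many pseudogene copies. One of them, KRT8P12, had 2 measured probe sets of its own, at 279 and 154 in CD90+ cells against 325 and 186 in CD90- cells. Within the KRT8 probe set, signal of pseudogene copies and of KRT8 itself cannot be told apart on these arrays.

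KRT19, a small type I keratin of simple ducts that basal cells of esophagus and carcinomas also carry, read 8526 in CD90+ and 5888 in CD90- cells. This was 1.45-fold higher, a log2 ratio of 0.53, and 3.77% of 1567 genes of like signal had a ratio as high. Of all measured genes 8.71% had one. Its other probe set was under the floor on both arrays, at 22.1 in CD90+ and 9.99 in CD90- cells. The log2 ratio of KRT19 exceeded that of KRT8, a type II partner, by 0.59.

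KRT7, a type II keratin of ducts and glands, had probe sets that disagreed. The one that stood for the gene read 272 in CD90+ and 170 in CD90- cells, 1.60-fold higher. A second read 38.2 in CD90+ and 95.2 in CD90- cells, lower on the floored scale by a log2 ratio of -0.41. The other probe sets were under the floor on both arrays, at 23.1 and 2.22 in CD90+ cells against 1.87 and 1.52 in CD90- cells. Averaged over the measured probe sets the log2 ratio was 0.14 ± 0.77 (SD, 2 probe sets), so these data give KRT7 no direction. KRT20, the keratin of intestinal epithelium and Merkel cells, was under the floor, at 3.16 in CD90+ and 16.5 in CD90- cells.

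KRT80 was the measured keratin at least 2-fold higher in CD90+ cells. It is a type II keratin that lies at cell borders near desmosomes and spreads through the cytoplasm as cells differentiate. It read 622 in CD90+ and 227 in CD90- cells, 2.74-fold higher with a log2 ratio of 1.45. Of all measured genes 0.96% had a ratio as high, and of the 3701 genes of like signal 1.54%. Its signal stood at 8.68 times the floor in CD90+ and 3.17 times in CD90- cells, on 1 probe set. Against a floor at the 75th percentile the CD90- signal was too low and the log2 ratio became a bound of 0.65. KRT23 and KRT222, the remaining keratins of the other epithelial class, were under the floor on both arrays.

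**Figure D3:**
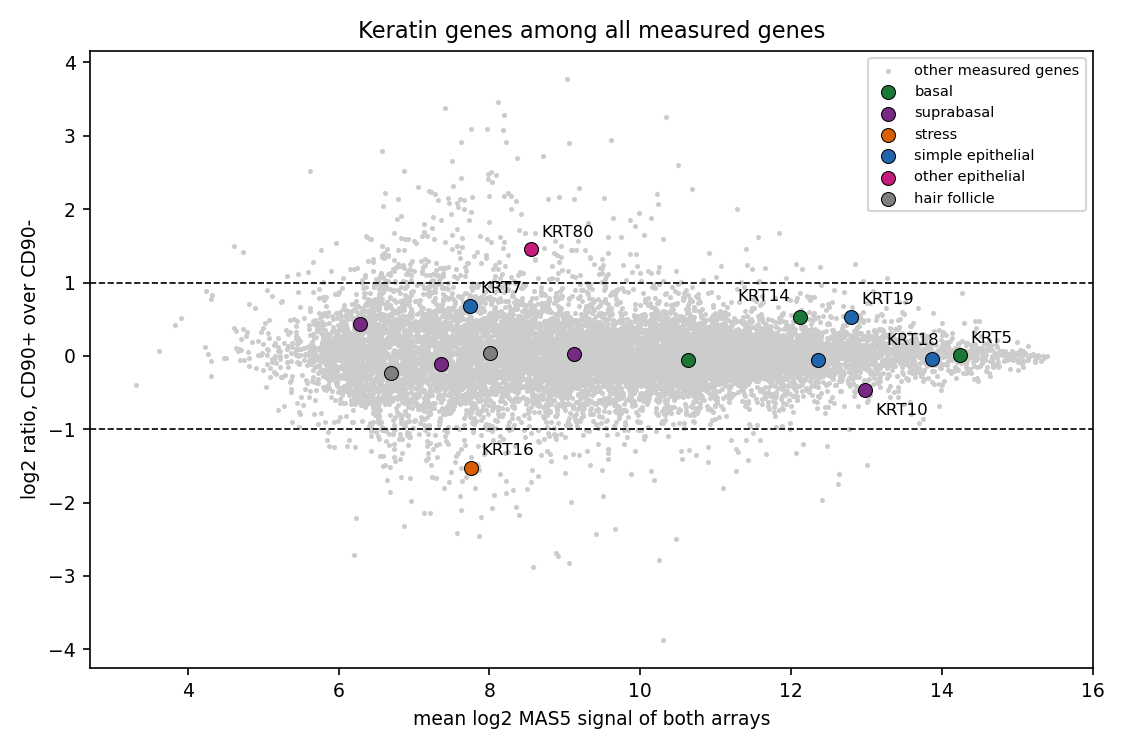
Log2 ratio, CD90+ over CD90-, against mean log2 MAS5 signal for the 12466 measured genes (grey) with the measured keratins coloured by class; dashed lines mark 2-fold. KRT80 and KRT16 lie outside the dashed lines. KRT14 and KRT19 lie in the upper part and KRT10 in the lower part of the grey cloud at their signal, with other genes further out.

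Keratins of the hair follicle were nearly all near background. Of 19 with a probe set of their own 17 were under the floor on both arrays, with signals up to 45.8 in CD90+ and 65.3 in CD90- cells. KRT74, of the inner root sheath, read 260 in CD90+ and 255 in CD90- cells on one probe set and 5.37 in CD90+ and 40.6 in CD90- cells on the other. KRT75, of the companion layer, read 95.8 in CD90+ and 113 in CD90- cells. Neither differed by more than 1.18-fold where it was measured. KRT34, on a probe set shared with another symbol, read 3.73 in CD90+ and 6.48 in CD90- cells. No probe set was named here for KRT26, KRT28, KRT39, KRT81, KRT82 or KRT86, which were not analysed.

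Over all classes 29 keratin genes reached the floor on neither array. Their 33 probe sets had a median signal of 8.90 in CD90+ and 12.8 in CD90- cells, and ranged from 3.16 to 45.8 in CD90+ and from 0.75 to 65.3 in CD90- cells. Ratios between such values have no order and are not given. The pseudogene KRT19P2 was likewise under the floor, at 49.0 in CD90+ and 38.2 in CD90- cells on its own probe set and at 69.6 in CD90+ and 6.76 in CD90- cells on one shared with a microRNA gene. Of the 62 probe sets 19 reached the floor on both arrays, 2 on 1 array and 41 on none.

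Type I genes lie together on chromosome 17 and type II genes on chromosome 12, where KRT18 also lies although it is type I. The 20 measured genes nearest to KRT16, keratins left out, had a median log2 ratio of 0.07, and those nearest to KRT80 one of 0.16. For the measured keratins these medians ran from 0.05 to 0.07 on chromosome 17 and from 0.06 to 0.16 on chromosome 12. KRT14, KRT15, KRT16, KRT19 and KRT9 had the same neighbour median of 0.07, which follows from their shared position once keratins are left out. Their own log2 ratios ran from -1.53 to 0.53, so close neighbours in the type I cluster read differently from each other. A cause of these differences was not tested.

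Among the other intermediate filament genes vimentin was the one beyond 2-fold. Of 12 measured members 1 passed 2-fold upward, 0 downward and 11 lay between, with a median log2 ratio of -0.0045. Over all measured genes 2.47% passed upward and 1.75% downward, and the median was 0.01. The list was chosen with earlier results of these data known. VIM, the filament of mesenchymal cells, read 6588 in CD90+ and 2771 in CD90- cells, 2.38-fold higher. The log2 ratios of the 15 measured keratins ran from -1.53 to 1.45, with a median of 0.01. VIM rests on 1 measured probe set. Further members were chosen after seeing their values. The neurofilament NEFL read 9194 in CD90+ and 14436 in CD90- cells (log2 ratio -0.65). The lamin LMNA read 4578 in CD90+ and 4569 in CD90- cells.

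Proteins that anchor or bind keratin filaments had 3 members beyond 2-fold among 24 measured, beside 4.22% of all measured genes either way. Each of these 3 rests on 1 measured probe set. Ratios were above 0 in 18 of the 24, beside 6384 of all 12466 genes, and the median log2 ratio was 0.19, beside 0.01 over all genes. This list too was chosen with earlier results of these data known, so its counts and median do not describe such proteins as a group. FLG, or filaggrin, which bundles keratin in the outer epidermis, read 412 in CD90+ and 32.8 in CD90- cells, at least 5.75-fold higher. PKP2, a desmosomal plakophilin, read 1095 in CD90+ and 476 in CD90- cells, 2.30-fold higher. EVPL, or envoplakin, which links keratin to the cornified envelope, read 60.0 in CD90+ and 193 in CD90- cells, at least 2.69-fold lower. Its partner PPL, singled out afterwards like the next gene, read 1431 in CD90+ and 1415 in CD90- cells. DSP, or desmoplakin, which fixes keratin to desmosomes, read 19865 in CD90+ and 21066 in CD90- cells.

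Transcription factors known to act on keratin or squamous differentiation genes went both ways. Of 20 measured members 3 passed 2-fold upward, 3 downward and 14 lay between, beside shares of 2.47% upward and 1.75% downward over all measured genes. The list was chosen with earlier results of these data known, so these counts do not describe such regulators as a group. The median log2 ratio was -0.13, beside 0.01 over all genes. The lower ones were ZNF750, a factor for terminal epidermal differentiation (90.2 in CD90+ against 236 in CD90- cells, 2.62-fold), and the grainyhead factors GRHL1 (489 against 1180, 2.42-fold) and GRHL3 (321 against 670, 2.09-fold). The higher ones were the epithelial ETS factor EHF (541 in CD90+ against 71.1 in CD90- cells, at least 7.56-fold), GATA3 (197 against 80.3, 2.45-fold) and SOX15 (795 against 375, 2.12-fold). For EHF and SOX15 a second measured probe set gave lower log2 ratios of 0.24 and 0.29, while the other 4 rest on 1 measured probe set each. SOX2, a squamous lineage factor, and KLF4, a factor of differentiating layers, were singled out afterwards. SOX2 read 23329 in CD90+ and 27407 in CD90- cells, and KLF4 2608 in CD90+ and 3609 in CD90- cells.

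**Figure D4:**
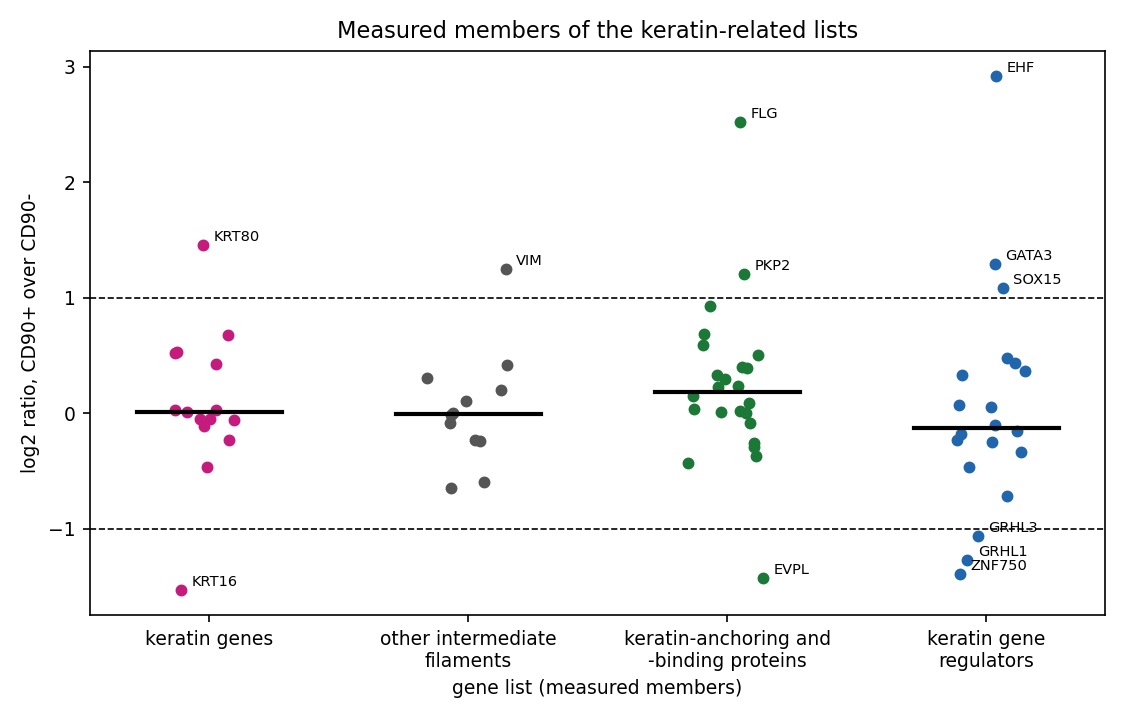
Log2 ratio, CD90+ over CD90-, of the measured members of 4 lists, spread sideways for legibility, with the median of each list as a black bar and 2-fold as dashed lines. The medians are 0.01 for keratin genes, -0.0045 for other intermediate filaments, 0.19 for keratin-anchoring and keratin-binding proteins and -0.13 for regulators, and members beyond 2-fold are named.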

How the data were processed

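The files hold 1 linear signal intensity per probe set for the CD90+ and the CD90- sample, deposited by the authors after MAS5 processing (per the submitters' processing notes, which name no version or settings). Since MAS5 takes mismatch signal away from perfect-match signal, dim values and their ratios are noisy. Both value columns were used.

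Gene symbols came from the platform annotation and were updated by gene identifier from RefSeq (GRCh38.p14): 41097 probe sets had 1 symbol, 1801 several and 11777 none here. The 62 control probe sets were dropped. Each gene was represented by its probe set of highest mean log2 signal, _x_at only where there was no other. Signals were floored at 71.6 and log2 ratios taken as CD90+ over CD90-; no test or p-value exists with 1 array per population. Genes of like signal are those with a mean log2 signal within 1. Every measured keratin was named, and in the other lists up to 4 members each way beyond 2-fold. The members, classes and lists were chosen with earlier results of these data known. Alternatives were no floor, 2 other floors, 3 scalings, 3 choices of probe set and a filter on mean signal. The procedure was tested on simulated data, with changes planted only in genes whose mean signal was above 4 times the floor. KRT7, KRT9, KRT16, KRT74, KRT75 and KRT78 lie below that, so the simulation does not cover them. Python 3.11.15 was used with pandas 2.3.3, numpy 2.4.6 and, for loess, statsmodels 0.14.6.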

Additional observations from a re-analysis of the deposited data

How the results depend on the processing

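The floor was the choice that moved the counts of keratin genes beyond 2-fold. Without a floor 4 of 44 genes passed 2-fold upward and 7 downward (all genes 11.2% and 9.02%). A floor at the 25th percentile gave 3 upward and 4 downward of 30 (all genes 6.51% and 4.85%), and one at the 75th percentile 0 and 0 of 9 (all genes 1.10% and 0.81%). Lower floors let dim probe sets in and the higher one leaves fewer genes. Quantile normalization, median scaling, loess, the mean over probe sets, the least changed probe set, the use of plain _at probe sets alone, and the filter on mean signal each gave 1 higher and 1 lower.

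The median log2 ratio of the measured keratins stayed between -0.05 and 0.02 under all 10 alternatives. Many values of single keratins could not move, since a gene with 1 measured probe set gives the same value under each choice of probe set that keeps it. Of 140 values of single keratins under the alternatives 136 lay within 0.31 of the reported one and 4 did not. These were KRT80 with the higher floor (0.65), and KRT7 by the mean over probe sets (0.14), by the probe set of smallest change (-0.41) and with plain _at probe sets alone (-0.41). KRT16 stayed beyond 2-fold under the 9 alternatives that gave it a value, from -1.53 to -1.49, and KRT80 under 9 of 10. Each has 1 probe set, above the main floor on both arrays. The choices of probe set, the lower floors and the filter therefore had to return the same value. Only the 3 scalings and the higher floor could change it. The sign of KRT5 turned under 2 alternatives, with its log2 ratio between -0.01 and 0.02. No paired analysis was possible because each population has 1 array. Signal over background limits KRT7, KRT9, KRT16, KRT74, KRT75 and KRT78, and no alternative addresses the spread between sorts.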
